A study of Homo sapiens with 6 samples.

Results

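Inorganic phosphate enters, leaves and moves within human cells through a small set of membrane carriers, and 4 of their genes are described here across 6 RNA libraries. They are the importers SLC20A1 and SLC20A2, the exporter XPR1 and the mitochondrial carrier SLC25A3, found by symbol among the 59251 rows of the deposited count table. SLC20A1 was chosen by its difference between the groups, being among the genes most raised in mutant cells. The other 3 were added for their role in phosphate transport, with results of these data already known. The difference of SLC20A1 is therefore given as a description, with no test.

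The libraries came from total RNA of HCT116, a human colorectal carcinoma cell line. In the MUT group (3 libraries) both alleles of eIF6, a factor that keeps the large ribosomal subunit from joining the small one, carry the N106S substitution made by CRISPR/Cas9 editing. The WT group (3 libraries) is the same line labelled as wild type, and the labels name no drug or other agent for either group. The labels speak of mutant clones, but do not say how many clones there were, nor which library came from which clone or culture. P-values below therefore measure the spread between these libraries, which may be technical.

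Cells need inorganic phosphate for ATP, nucleic acids and phospholipids. SLC20A1 and SLC20A2 carry it inward across the plasma membrane together with sodium, and both were first known as receptors of retroviruses. XPR1, the phosphate exporter of animal cells and also a retrovirus receptor, holds an SPX domain that senses inositol pyrophosphates. SLC25A3 carries phosphate with protons into the mitochondrial matrix, where ATP synthase joins it to ADP, and it also carries copper.

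Libraries held 53986494 to 80146608 counts in MUT and 63951768 to 87656970 in WT. 7SL RNA made up 43.3% to 59.4% of them in MUT and 56.9% to 64.4% in WT. MUT replicate 2 stood apart, with 3.51% of its counts from ribosomal RNA genes, where MUT replicates 1 and 3 had 0.0886% and 0.137%. WT replicate 1 had 1.08%, where WT replicates 2 and 3 had 0.116% and 0.233%. Results are therefore also given without these libraries. EIF6 RNA was at 36.7, 30.7 and 35.7 CPM (counts relative to TMM-scaled library sizes) in MUT and 43.3, 47.9 and 47.4 CPM in WT. The groups did not overlap, and the log2 fold change was -0.43 (SE 0.12, edgeR adjusted p = 0.110). DESeq2's Wald test gave -0.41 (adjusted p = 0.0442). By library size without TMM the value was 0.09, where the median of all genes was 0.54. The level of EIF6 RNA does not check the edit, which changes an amino acid. Of 8 epithelial markers 6 passed the filter on low counts, led by the keratin gene KRT18. CDX1 and VIL1, which mark intestinal epithelium, did not, with at most 3 and 6 counts in any library. CDX2, another intestinal marker, did pass, with 147 to 238 counts per library, and its groups overlapped. It was named after its values were seen. Of 16 markers of other cell types, PTPRC, CD3E, INS and HBB were at 0 everywhere. Their summed level was 3.26 to 4.59 CPM in MUT and 2.01 to 4.19 CPM in WT. Groups did not overlap for 26.1% of all tested genes, and for 2 of the 4 of these markers that were tested. ACTA2, a smooth muscle actin gene with the highest mean TPM of these, was at 1.32, 1.33 and 1.64 CPM in MUT and at 0.796, 0.935 and 0.879 CPM in WT (log2 fold change 0.71, edgeR adjusted p = 0.097). DES, the other marker whose groups did not overlap, was named after its values were seen and went the other way. It was at 0.306, 0.359 and 0.285 CPM in MUT and at 0.550, 0.361 and 0.579 CPM in WT. The log2 fold change of DES was -0.62 (SE 0.33, edgeR adjusted p = 0.340). Of the 6 tested epithelial markers 3 did not overlap, against 26.1% of all tested genes. Named after their values were seen, these were CDH1 (-1.23), EPCAM (-0.34, but 0.23 by library size alone) and KRT8 (0.32). None passed edgeR's test (adjusted p = 0.119, 0.139 and 0.255). The part of these markers in the results below was not tested.

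SLC20A1 (chromosome 2, 112645939 to 112663825, GRCh38) had more RNA in every MUT library than in any WT library. It was at 8.31, 7.84 and 8.75 CPM in MUT and at 4.05, 3.17 and 3.03 CPM in WT, relative to TMM-scaled library sizes. The 3 MUT values lay close together and did not overlap with WT, where replicate 1 was the highest. The log2 fold change was 1.28 (SE 0.14), or 2.42-fold, and 160 of 14808 tested genes had a larger one. These values rest on 522 to 763 counts per MUT library and 131 to 280 per WT library. In bulk RNA, more cells that express a gene and more of its RNA per cell cannot be told apart. Without MUT replicate 2 the value was 1.33, and with WT replicate 1 also left out it was 1.48 (SE 0.16). Its level per length was 2.42, 4.02 and 3.0 FPKM in MUT and 0.99, 1.06 and 0.64 FPKM in WT.

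Sequences before the starts of SLC20A1 and SLC25A3 are shown because these are the 2 genes of the 4 whose groups did not overlap. They are the 250 bases before each RefSeq gene start (GRCh38.p14), both on the plus strand, at chr2:112645689-112645938 and chr12:98593436-98593685. Capitals mark GC boxes, the letters GGGCGG read on either strand.
SLC20A1: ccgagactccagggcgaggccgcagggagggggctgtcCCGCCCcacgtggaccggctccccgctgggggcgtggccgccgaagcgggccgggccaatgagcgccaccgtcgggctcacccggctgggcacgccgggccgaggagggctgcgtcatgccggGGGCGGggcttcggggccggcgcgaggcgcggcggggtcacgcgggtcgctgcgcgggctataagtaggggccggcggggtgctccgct
SLC25A3: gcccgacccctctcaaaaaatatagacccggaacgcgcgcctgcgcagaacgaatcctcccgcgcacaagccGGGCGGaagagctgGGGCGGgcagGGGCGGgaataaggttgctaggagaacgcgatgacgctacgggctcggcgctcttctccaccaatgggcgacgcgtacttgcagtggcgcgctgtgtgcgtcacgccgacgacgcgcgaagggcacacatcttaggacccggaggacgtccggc
The SLC20A1 stretch was 80.0% G or C with 37 CG pairs, and that of SLC25A3 was 66.0% G or C with 34, against medians of 58.0% and 11 over 35116 promoters of the same length. SLC20A1 held 2 GC boxes and SLC25A3 held 3, and 42.6% of promoters held at least 1. Each also held 1 CCAAT box (CCAAT, in 32% of promoters). An E-box (CACGTG, in 6.34% of promoters) was found in SLC20A1 only of the pair, next to the first GC box. Neither held the letters of a TATA box (TATAAA, 10.7%), an AP-1 site (TGACTCA, 4.2%) or a CRE core (TGACGT, 7.1%). All were searched on both strands as these exact letters only, and a match is a description of the letters, not a bound site. Close variants were not counted. SLC20A1 holds tataag near the end of its stretch and SLC25A3 tataga near the start, each a letter away from TATAAA.

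SLC20A2 (chromosome 8, 42416475 to 42541954), the other importer of the family, had no detectable difference between the groups. It was at 2.53, 1.90 and 1.73 CPM in MUT and at 2.26, 2.08 and 2.24 CPM in WT. All 3 WT values lay inside the MUT range. The log2 fold change was -0.10 (SE 0.18, edgeR quasi-likelihood test with Benjamini-Hochberg adjustment over all genes, adjusted p = 0.824), and 2 SE either side ran from -0.45 to 0.26. Its span overlaps that of the gene SMIM19, and the sources used here do not say whether counting used strand, so some reads may belong to either gene. SMIM19 was at 4.05, 4.73 and 3.52 CPM in MUT and at 5.84, 6.28 and 6.59 CPM in WT (log2 fold change -0.60, edgeR adjusted p = 0.056, DESeq2 called it).

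The balance of the 2 importers can be read within a library, where scaling does not enter. SLC20A1 made up 80.0%, 84.3% and 86.2% of their summed TPM in MUT and 68.4%, 65.2% and 61.5% in WT. The means were 83.5% ± 3.17 in MUT and 65.1% ± 3.44 in WT (SD, n = 3 each), and the groups did not overlap. As SLC20A1 was chosen by its difference, this too is a description. On FPKM the means were 83.3% in MUT and 65.5% in WT. TPM of SLC20A2 were 0.10 to 0.24 and deposited with 2 decimals, which limits the TPM shares. On expected counts, which are not scaled for length, the means were 80.2% in MUT and 60.7% in WT.

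XPR1 (chromosome 1, 180632022 to 180890279), the exporter, had no detectable difference either. It was at 2.5, 2.20 and 2.68 CPM in MUT and at 2.20, 2.66 and 3.05 CPM in WT, with wide overlap. The log2 fold change was -0.10 (SE 0.16, edgeR adjusted p = 0.804), and 2 SE either side ran from -0.42 to 0.23. Within libraries, the log2 ratio of XPR1 to SLC20A2 in TPM averaged -0.54 ± 0.38 in MUT and -0.50 ± 0.24 in WT (SD, n = 3 each). The two-sided exact permutation test gave p = 0.9, where 3 against 3 libraries cannot go below 0.1. TPM of both genes were 0.07 to 0.24 and were deposited with 2 decimals, which limits this ratio.

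SLC25A3 (chromosome 12, 98593686 to 98606367), the mitochondrial carrier, was lower in every MUT library than in any WT library. It was at 107.0, 112.2 and 107.8 CPM in MUT and at 152.4, 176.4 and 185.9 CPM in WT. The MUT values lay within a few CPM of each other, and WT replicate 1 was the lowest of its group. The log2 fold change was -0.65 (SE 0.15), with an adjusted p of 0.0654 in edgeR's test, which did not pass 0.05. The call depended on the tool: DESeq2's Wald test called it (-0.64, adjusted p = 0.000135), and so did limma-voom (0.0427), edgeR with no low-count filter (0.0457) and with a minimum of 1 CPM (0.0496). Without MUT replicate 2 the value was -0.65 (adjusted p = 0.0973), and the 18 alternatives gave adjusted p-values of 0.000135 to 0.975. By library size alone the log2 fold change was -0.10, where the median of all genes was 0.54. These values rest on 6430 to 13205 counts per library.

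**Figure D1:**
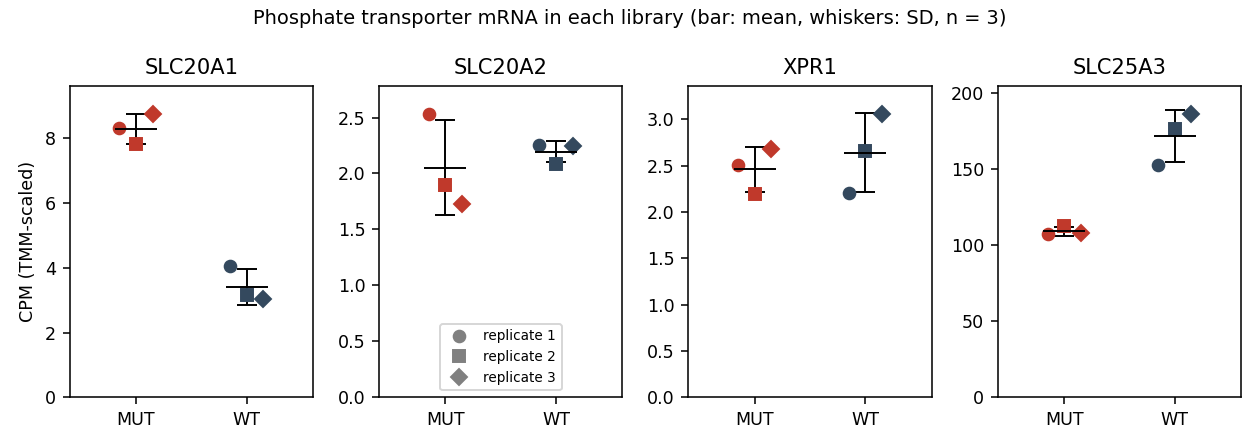
CPM relative to TMM-scaled library size (vertical axes, each from 0) of the 4 phosphate transporter genes in 3 MUT and 3 WT libraries; each point is a library, the long bar the mean and the whiskers the SD. SLC20A1 lies at 7.84 to 8.75 CPM in MUT and 3.03 to 4.05 CPM in WT, SLC25A3 at 107.0 to 112.2 CPM in MUT and 152.4 to 185.9 CPM in WT, and the groups of SLC20A2 and XPR1 overlap.

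Of the 4 genes, 2 had groups that did not overlap, and over all tested genes 26.1% did not. In edgeR's test 1 of 4 passed an adjusted p of 0.05, where 1.91% of all 14808 tested genes passed, 0.986% higher and 0.925% lower in MUT. Since SLC20A1 was chosen on this contrast, nothing is read from those counts. The median log2 fold change of all tested genes was -0.01, and 90% of genes lay between -0.73 and 0.71. SLC20A1 lay outside that range, and SLC25A3 inside it but with 927 tested genes lower.

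Per length, the order of the 4 genes was the same in all 6 libraries: SLC25A3 first, then SLC20A1, SLC20A2 and XPR1. SLC25A3 was at 16.9 to 31.3 FPKM in MUT and 20.3 to 32.2 FPKM in WT. That was 6.70 to 7.79 times the FPKM of SLC20A1 in MUT and 20.5 to 33.2 times in WT, without overlap. SLC20A1 was 3.97 to 6.0 times SLC20A2 in MUT and 1.68 to 2.20 times in WT. Both ratios contain SLC20A1, which was chosen by its difference, so they are descriptions. SLC20A2, at 0.50 to 0.75 FPKM in MUT and 0.38 to 0.57 in WT, and XPR1, at 0.33 to 0.48 FPKM in MUT and 0.27 to 0.43 in WT, had ranges that overlapped in WT. Among tested genes, mean FPKM of SLC25A3 exceeded that of 94.0% and of SLC20A1 that of 72.6%, while SLC20A2 and XPR1 exceeded 43.8% and 34.9%.

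Reads of copies of these genes were few. SLC20A1P1, SLC20A1P2, SLC20A1P3, SLC25A3P1 and SLC25A3P3, their pseudogenes, had 0 counts in all libraries, and SLC25A3P2 had 2 counts in 1. SNORA53, a small nucleolar RNA that lies within SLC25A3, was at 6.09, 7.66 and 7.12 CPM in MUT and at 7.12, 4.21 and 13.1 CPM in WT. Its groups overlapped (log2 fold change -0.22, SE 0.33, edgeR adjusted p = 0.785).

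The log2 fold change of SLC20A1 ran from 1.12 to 1.82 over 16 alternatives, the lowest on the log2(FPKM + 1) scale, which understates changes of low genes, and the highest by library size alone. SLC20A2 ran from -0.28 to 0.43 and XPR1 from -0.20 to 0.43 over 15 alternatives each, and none of these called either gene. SLC25A3 ran from -0.73 to -0.02 over 18 alternatives, with -0.02 on log2(TPM + 1), -0.03 on log2(TPM + 0.1) and -0.12 on log2(FPKM + 1), where the medians of all genes were 0.36, 0.49 and 0.33. SLC20A2 and XPR1 were above 0 by library size alone (0.43 each), below the median of all genes there (0.54).

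**Figure D2:**
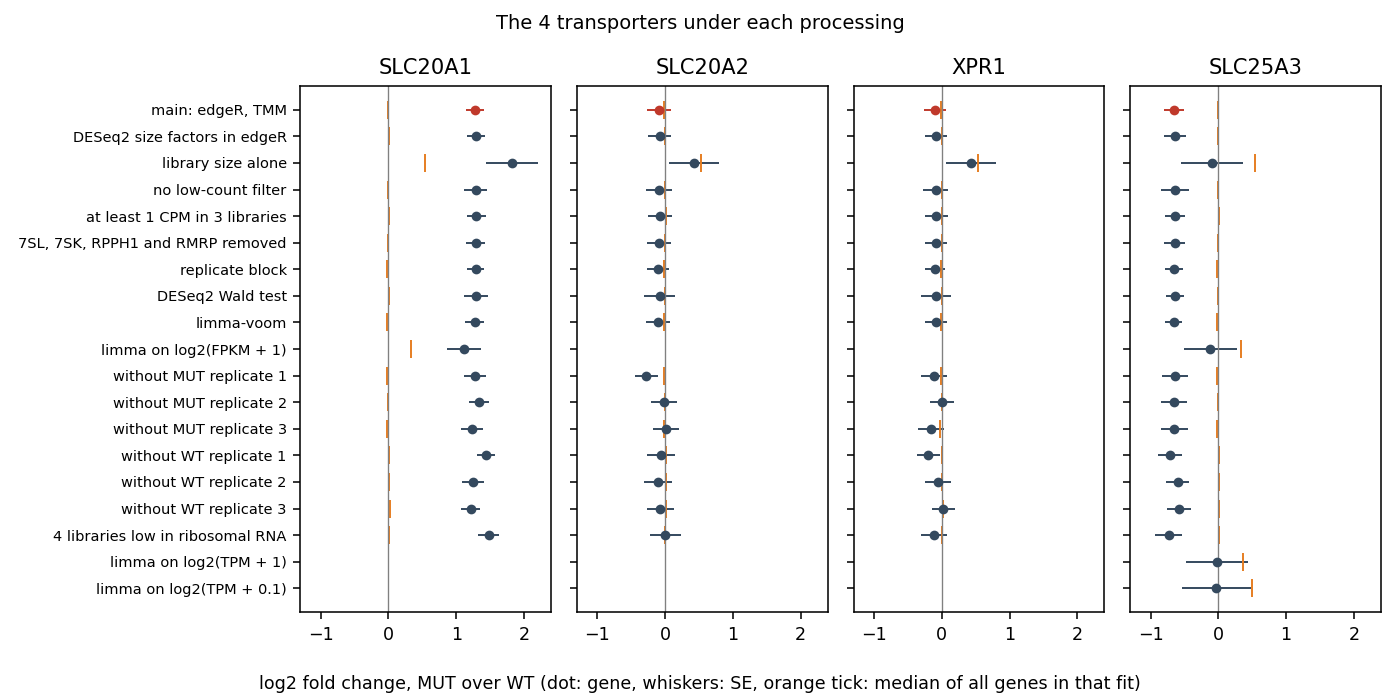
Log2 fold change of MUT over WT (horizontal axis) of each transporter gene under each processing, with whiskers of 1 SE and an orange tick for the median of all genes in that fit. SLC20A1 stays right of the orange tick in each fit that gave it a value, and SLC25A3 left of it, while SLC20A2 and XPR1 sit near it.

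Other genes that handle phosphate were taken in 10 lists of 102 distinct genes, of which 72 passed the filter on low counts. Of those, 3 passed edgeR's test (4.17%, against 1.91% of all tested genes), 2 higher and 1 lower in MUT. Their median log2 fold change was -0.07, against -0.01 for all tested genes. Groups did not overlap for 31.9% of the 72, against 26.1% of all tested genes. The other counts given below by list have their own background: 19.6% of all tested genes had an unadjusted edgeR p below 0.05, DESeq2 called 5.99% of the 12763 genes it gave an adjusted p, and limma-voom called 1.77%.

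Among the plasma membrane phosphate cotransporters of kidney and gut, 0 of 7 passed the filter. SLC34A1 had 3, 9 and 3 counts in MUT and 7, 21 and 3 in WT. SLC34A3 had 0 in MUT and 5, 3 and 3 in WT, and the other 5 were at 0. SLC20A1 and SLC20A2 were thus the only tested genes of the lists taken as phosphate importers of the plasma membrane.

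Mitochondrial carriers of phosphate and adenine nucleotides included the genes closest to SLC25A3 in function. SLC25A5 and SLC25A6, which exchange ADP for ATP across the inner membrane, had the highest levels of that list. SLC25A5 was at 146.5, 146.0 and 135.5 CPM in MUT and at 203.1, 246.5 and 217.8 CPM in WT. SLC25A6 was at 189.4, 180.3 and 176.4 CPM in MUT and at 269.4, 334.4 and 267.8 CPM in WT. Both were lower in every MUT library, with log2 fold changes of -0.64 (SE 0.16) and -0.67 (SE 0.18), but neither passed edgeR's test (adjusted p = 0.081 and 0.088). DESeq2 called both (adjusted p = 0.000281 and 0.000246). Of 7 tested genes in this list edgeR called 0 (3 at an unadjusted p below 0.05), DESeq2 2 and limma-voom 0. The median was -0.13, with 6 below 0, where 7601 of all 14808 tested genes were. By library size alone SLC25A5 was at -0.11 and SLC25A6 at -0.16, where the median of all genes was 0.54.

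The ratio of SLC25A3 to these exchangers within libraries was similar in both groups. SLC25A3 was 0.152, 0.160 and 0.165 of SLC25A5 in MUT and 0.156, 0.149 and 0.178 in WT, in FPKM. It was 0.131, 0.145 and 0.142 of SLC25A6 in MUT and 0.131, 0.123 and 0.161 in WT. The groups overlapped in both ratios, which were chosen after the values were seen and were not tested.

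ATP synthase, the enzyme that uses the imported phosphate, had 18 tested genes with a median log2 fold change of -0.25. Where 7601 of all 14808 tested genes were below 0, 16 of these 18 were. EdgeR called 0 (4 at an unadjusted p below 0.05), limma-voom 0 and DESeq2 2, both lower. These were ATP5F1A (-0.54, adjusted p = 0.00729), the alpha subunit of the catalytic head, and ATP5F1D. By library size alone ATP5F1A was at 0.03 and the list's median at 0.32, where the median of all genes was 0.54. The genes of the list with the highest TPM, ATP5MK (0.18, SE 0.23) and ATP5ME (-0.07, SE 0.19), both small membrane subunits, overlapped between the groups. ATP5F1B, the beta subunit, was chosen after its values were seen, and was at 99.2, 121.8 and 101.4 CPM in MUT and 97.6, 113.8 and 106.9 CPM in WT. SLC25A3 was 0.307, 0.262 and 0.302 of ATP5F1B in MUT and 0.444, 0.441 and 0.495 in WT, in FPKM, so these ratios did not overlap. Its ratio to ATP5F1A, also chosen after the values were seen, did: 2.34, 1.91 and 2.21 in MUT and 2.2, 2.31 and 2.34 in WT.

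The enzymes that make and break inositol pyrophosphates, the ligands of XPR1's SPX domain, and the XPR1 partner KIDINS220 gave 11 tested genes with a median of 0.04. EdgeR called 0 (3 at an unadjusted p below 0.05), and DESeq2 and limma-voom 0 each. The kinase gene IP6K2, at 8.03 ± 1.12 CPM in MUT and 7.63 ± 0.73 CPM in WT (SD, n = 3 each), had a log2 fold change of 0.08 (SE 0.13). ITPK1, an inositol phosphate kinase, was at 7.09 ± 0.47 CPM in MUT and 5.97 ± 0.02 CPM in WT (0.25, SE 0.10, edgeR adjusted p = 0.233). Its groups did not overlap, though the difference did not pass the test.

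Genes of extracellular phosphate held 1 called gene of 5 tested. NT5E, a surface enzyme that frees phosphate and adenosine from AMP, rose: it was at 4.0, 4.6 and 4.46 CPM in MUT and at 2.39, 2.49 and 1.87 CPM in WT. The groups did not overlap, and the log2 fold change was 0.94 (SE 0.14, edgeR adjusted p = 0.0192). With 1 library left out it passed only without MUT replicate 2 (0.0216), and the adjusted p in those fits was at most 0.097. NT5E passed in 9 of 16 alternatives, with adjusted p-values up to 0.209. It missed in edgeR by library size alone (0.0632). The list's median was 0.34.

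In the list of hormonal control of phosphate 2 of 11 tested genes were called. SGK1, a kinase known to raise the activity of several membrane transporters, rose to 1.12, 0.996 and 0.955 CPM in MUT, against 0.362, 0.454 and 0.486 CPM in WT. Its log2 fold change was 1.24 (SE 0.24, edgeR adjusted p = 0.0379), with no overlap. These values rest on 57 to 97 counts per MUT library and 21 to 34 per WT library, and 8 of 15 alternatives called SGK1. CYP24A1, which breaks down active vitamin D, fell to 47.7, 36.0 and 43.1 CPM in MUT, against 73.1, 65.6 and 67.2 CPM in WT, with a log2 fold change of -0.70 (SE 0.14, edgeR adjusted p = 0.0476). Of the fits with 1 library left out, SGK1 passed only without MUT replicate 2 (0.0435) and CYP24A1 in none (0.0722 to 0.178). CYP24A1 passed in 5 of 18 alternatives, missing with DESeq2 size factors in edgeR (0.0517) and with 7SL and other abundant small RNAs removed (0.053), and it was at -0.19 by library size alone. In the 4 libraries low in ribosomal RNA neither passed (0.0946 for SGK1, 0.106 for CYP24A1). The list's median was 0.03.

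In the remaining lists edgeR with its usual filter called no gene. It called 0 of 4 sugar phosphate antiporters (2 at an unadjusted p below 0.05), 0 of 6 genes of intracellular phosphate release (0), 0 of 4 other genes of familial brain calcification (1) and 0 of 6 other transporters used as retrovirus receptors (1). DESeq2 and limma-voom called none of these genes. Their medians were -0.08, -0.04, 0.09 and 0.00. SLC37A4, the glucose phosphate carrier of the endoplasmic reticulum, was at 4.38 ± 0.22 CPM in MUT and 5.76 ± 0.66 CPM in WT (log2 fold change -0.39), without overlap. Its relative SLC37A3 (-0.44) overlapped. The pyrophosphatase PPA1 (-0.33) and the histidine phosphatase PHPT1 (-0.07) overlapped too. The calcification genes NAA60 (0.22) and PDGFB (0.52), an acetyltransferase and a growth factor, did not overlap. The amino acid carrier SLC1A5 (-0.06) and the riboflavin carrier SLC52A2 (0.22) overlapped. FLVCR1, a choline and heme transporter named after its values were seen, did not: it was at 1.3, 1.19 and 1.26 CPM in MUT and at 2.1, 1.84 and 2.11 CPM in WT (-0.69, SE 0.16, edgeR adjusted p = 0.065). EdgeR called FLVCR1 with no low-count filter (0.0385) and, just under the threshold, with a 1 CPM minimum.

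**Figure D3:**
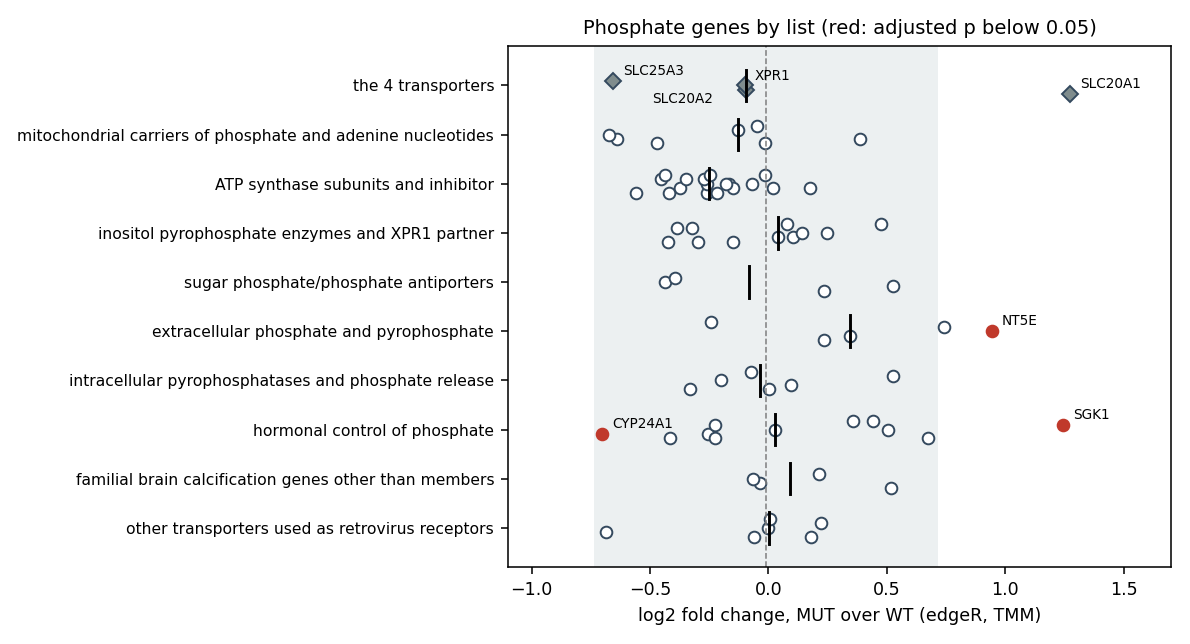
Log2 fold change of MUT over WT (horizontal axis) of each tested gene, by list of phosphate genes; black bars are list medians, the grey band holds 90% of all tested genes, and the dashed line is their median. SLC20A1 (1.28), NT5E (0.94) and SGK1 (1.24) lie right of the band, and the list genes that passed edgeR's test are red.

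Genes around SLC20A1 did not share its difference as a group. Of 23 tested genes within 1 Mb, edgeR called 0 (3 at an unadjusted p below 0.05), DESeq2 1 and limma-voom 0, and the median log2 fold change was 0.01. The nearest tested protein-coding genes were CHCHD5 on one side (-0.18, SE 0.12) and NT5DC4 on the other (0.99, SE 0.47), which was at 0.184 to 0.329 CPM in MUT and 0.069 to 0.159 CPM in WT. The gene that DESeq2 called, CKAP2L, a mitotic spindle protein, was at 2.4, 2.99 and 2.26 CPM in MUT and at 1.69, 1.43 and 1.09 CPM in WT. Its log2 fold change was 0.85 (SE 0.20, edgeR adjusted p = 0.0663). CKAP2L (112736349 to 112764609) overlaps NT5DC4 (112718876 to 112742879), and strand is not known, so some reads may belong to either gene. Neither gene had values that overlapped between MUT and WT, and NT5DC4 rests on 3 to 32 counts per library. Around SLC25A3, edgeR called 0 of 5 genes within 1 Mb (2 at an unadjusted p below 0.05, DESeq2 0), around XPR1 0 of 11 (1, DESeq2 0) and around SLC20A2 0 of 16 (3, DESeq2 1, which was SMIM19).

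The genes most like SLC20A1 across the 6 libraries were sought among 4247 protein-coding genes whose log2 CPM averaged 2 or more. Likeness was the root mean square difference of log2 CPM over the 6 libraries, each gene centred on its own mean. The closest was CDKN1A (0.124), the cell cycle inhibitor p21, followed by the polo-like kinase PLK2 (0.150) and the matrix protein TINAGL1 (0.165). SDF4, a calcium-binding protein of the Golgi (0.198), the secreted Wnt inhibitor DKK1 (0.204) and the cargo receptor TMED9 (0.204) came next. The median over all candidates was 0.698. A gene higher in MUT by a like amount is close to SLC20A1 by construction, so their differences are not independent evidence. CDKN1A was at 59.1, 57.8 and 65.0 CPM in MUT and at 24.5, 25.3 and 22.7 CPM in WT.

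**Figure D4:**
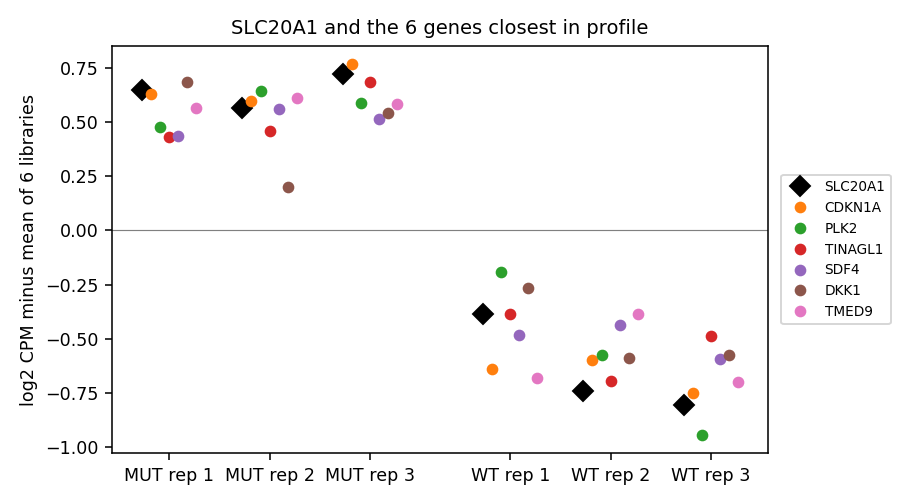
Log2 CPM minus the gene's own mean over the 6 libraries (vertical axis) for SLC20A1 (black diamonds) and the 6 genes closest to it, by library. All 7 genes lie above 0 in the 3 MUT libraries and below 0 in the 3 WT libraries, with DKK1 lowest in MUT replicate 2.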

How the data were processed

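The deposited tables held expected counts, FPKM and TPM for 59251 gene symbols. Per the submitters' processing notes, which give no roles, FastQC 0.12.1, STAR 2.5.2b, RSEM 1.2.28, DESeq2 1.42.0 and build hg38 (GRCh38) were used; annotation and strand are not given in the sources used here. Every deposited expected count was a whole number. FPKM and TPM, deposited by the authors with 2 decimals, served for levels per length and alternatives. RefSeq GRCh38.p14 matched 57842 symbols directly and 370 by an older name.

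Counts were fitted in R 4.3.3 with edgeR 4.0.16 (filterByExpr with a minimum count of 10 and a total of 15, TMM, quasi-likelihood F-test, Benjamini-Hochberg adjustment over 14808 genes, threshold 0.05), with limma 3.58.1 and DESeq2 1.42.0 as alternatives. Dividing the size of the log2 fold change by the root of its F statistic gave the SE. The procedure was tested on simulated counts. Groups came from titles and columns from descriptions. Same-numbered libraries were not treated as pairs (see the correlations in the closing section). No 2 libraries of a group agreed within sampling noise. Named genes were the 4 transporters, their pseudogenes and SNORA53, up to 4 called genes per list or else the 2 with the highest TPM, the neighbours of SLC20A1, and its 6 closest genes. Other genes named are said to be chosen after their values were seen, or are named as called by another tool. Members and lists were chosen with earlier results of these data known. Ribosome profiling is not analysed here.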

Additional observations from a re-analysis of the deposited data

How the results depend on the processing

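SLC20A1 was higher in MUT in all 16 alternatives that gave it a value; it moved past the replicate spread by library size alone (1.82) and in the 4 libraries low in ribosomal RNA (1.48), and ran from 1.21 to 1.43 without 1 library. SLC25A3 passed the threshold with no low-count filter (-0.64), a 1 CPM minimum (-0.64), DESeq2 (-0.64) and limma-voom (-0.66), and ran from -0.71 to -0.58 without 1 library, -0.73 in the 4 libraries and -0.12 to -0.02 on the TPM and FPKM scales; the cause was not tested. SLC20A2 turned above 0 by library size alone (0.43) and in the 4 libraries (0.0062), and ran from -0.28 to 0.011 without 1 library. XPR1 did by library size alone (0.43), and ran from -0.20 to 0.023 without 1 library. The log2 ratio of XPR1 to SLC20A2 had a difference between MUT and WT of -0.04, or 0.024 on expected counts, and -0.25 to 0.11 without 1 library. The share of SLC20A1 differed by 16.7 to 20.2 percentage points without 1 library.

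The count of called genes, 283, was 108 by library size alone (95 higher, 13 lower, with the median of all genes at 0.54), 1195 with no low-count filter, 462 with a 1 CPM minimum, 764 with DESeq2 (274 shared), 21 and 10 on log2(TPM + 1) and log2(TPM + 0.1), 13 on log2(FPKM + 1), 442 without MUT replicate 2, and 27 to 61 without 1 of the other libraries. Over the phosphate lists the 3 calls became 1 by library size alone, 5 with a 1 CPM minimum, 7 with DESeq2, 0 on each TPM and FPKM scale, 2 with DESeq2 size factors, with abundant small RNAs removed and in the 4 libraries, and 0 to 2 without 1 library. SLC20A2 and XPR1 gave no value on the TPM and FPKM scales, nor SLC20A1 on TPM, since they fell below the minimum of 1.

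With the replicate number as a block 296 genes were called, SLC20A1 was at 1.28, SLC20A2 at -0.11, XPR1 at -0.09 and SLC25A3 at -0.65 (adjusted p = 0.0602). The numbers were not taken as pairs, since deviations of same-numbered libraries correlated at -0.665, -0.311 and 0.367; SGK1 lost its call under the block (0.0622), and no call of a transporter changed. SLC20A2 and XPR1 rest on 97 to 214 counts per library, so small differences were not detectable at this depth.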

Other observations

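The count of a gene divided by its FPKM gives the transcript length that the authors' estimate used, here relative to SLC25A3 in the same library. For SLC20A1 this relative length was 0.543, 0.544 and 0.544 in MUT and 0.545, 0.544 and 0.541 in WT. For SLC20A2 it was 0.656, 0.707 and 0.644 in MUT and 0.668, 0.667 and 0.674 in WT. For XPR1 it was 1.2, 1.28 and 1.14 in MUT and 1.08, 1.13 and 1.06 in WT, without overlap. FPKM of XPR1 were 0.27 to 0.48 and given with 2 decimals, so rounding alone moves this length by a percent or more. The closest values of the groups, 1.137 in MUT replicate 3 and 1.127 in WT replicate 2, lie within such rounding. These lengths enter the log2 ratio of XPR1 to SLC20A2 in TPM and FPKM, but not in expected counts. Lengths were not fixed for every gene: of 703 genes with at least 20 FPKM and 500 counts in every library, 205 (29.2%) varied by a coefficient of variation over 2% across libraries.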
